A study of Mus musculus with 11 samples.

Results

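The genes for mitochondrial ribosomal proteins were taken as the protein-coding genes of the count table whose symbol is Mrpl or Mrps followed by a number and at most 1 letter. The rule found 78 of the 47131 genes in the table, and all 78 passed the filter on low counts that left 14840 genes for testing. By current structures, 51 encode proteins of the large subunit and 26 proteins of the small subunit. Mrps18a and Mrps30 count among the large subunit, although their symbols say otherwise. The remaining member, Mrps36, is now regarded as a component of the 2-oxoglutarate dehydrogenase complex rather than of the ribosome.

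The mitochondrial ribosome sits in the mitochondrial matrix and translates the few messenger RNAs that the mitochondrial chromosome encodes, all of them for subunits of the oxidative phosphorylation complexes. Its ribosomal RNAs come from the mitochondrial chromosome, but every one of its proteins is encoded in the nucleus, made in the cytosol and imported. Part of its proteins have relatives in bacterial ribosomes and part occur only in mitochondria. In the intestinal epithelium, oxidative phosphorylation is a main energy source of the absorptive cells, and mitochondrial function is known to matter for stem cells as well.

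The libraries came from mouse colorectal organoids, epithelial cultures grown in Matrigel from the colon of C57BL/6J mice (female, 6 to 8 weeks old). Exposure to NAP at 10 pM lasted 48 h in 6 of them, and the other 5 are controls without it. The labels do not spell out NAP, and they call the controls untreated in one field and give phosphate-buffered saline as the vehicle in another. No genotype other than the wild-type strain is named, all libraries carry batch label 1, and no label tells whether the replicates are different mice or cultures. The p-values therefore reflect library-to-library spread alone, part of which may be technical.

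Library totals ran from 16546263 to 21947414 gene counts, and 3 counts, the most that a count of 0 allows, stood for 0.137 to 0.181 CPM. The 8 markers of colon epithelium were all tested, and their summed level was 7910 to 11000 CPM over the libraries. The summed markers of fibroblasts reached 0.181 to 19.6 CPM, with the highest sum in NAP library 5, those of immune cells 2.16 to 13.3 CPM, of endothelial cells 2.93 to 5.95 CPM, of muscle 0.112 to 1.57 CPM and of neural cells 0.773 to 3.74 CPM. None of the 6 fibroblast or 4 muscle markers passed the low-count filter. In bulk samples like these, fewer cells of a type and less RNA per cell cannot be told apart.

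Promoters are shown first because the factors best known for controlling nuclear genes of the mitochondrion, NRF1, YY1 and the ETS protein GABP, each recognise a short sequence near the start of such genes. RefSeq promoter sequences (build GRCm38.p6, from 250 bases before to 50 bases after each start) were matched for 69 of the 78 members. The ETS core CCGGAAG, searched on both strands, was present for 26 members (37.7%), against 19.3% of the 10923 tested genes with a promoter and 9.93% of all 27025 genes with one. The YY1 core AAGATGGCG was present for 8 members (11.6%), against 3.43% of tested genes and 1.64% of all. The NRF1 core GCGCATG was present for 8 members (11.6%), against 7.47% of tested genes and 4.41% of all. A match describes letters only and is not a binding site. The 250 bases before the start are printed for Mrps26, which had 1 of the largest differences of all members, and for Mrpl22, whose NAP libraries all lay below all controls. Capitals mark the ETS core on either strand and the NRF1 core.
Mrps26, chr2:130563507-130563756, plus strand: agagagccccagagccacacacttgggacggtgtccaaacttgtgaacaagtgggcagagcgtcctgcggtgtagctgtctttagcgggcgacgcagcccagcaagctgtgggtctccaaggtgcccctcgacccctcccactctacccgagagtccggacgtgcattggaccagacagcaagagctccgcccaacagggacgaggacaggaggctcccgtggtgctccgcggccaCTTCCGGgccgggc
Mrpl22, chr11:58171414-58171663, plus strand: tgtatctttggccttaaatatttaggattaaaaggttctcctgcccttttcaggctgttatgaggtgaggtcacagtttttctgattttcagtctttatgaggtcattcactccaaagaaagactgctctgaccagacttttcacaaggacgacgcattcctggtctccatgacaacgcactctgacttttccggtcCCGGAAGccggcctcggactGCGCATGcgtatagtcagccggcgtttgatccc
The promoter of Mrps26 carries the ETS core in its reverse complement, close to the start. That of Mrpl22 carries the ETS core followed by the NRF1 core. Both are shown as examples with a core. Of the other members whose NAP libraries all lay below all controls, Mrps12, Mrpl57 and Mrpl18 carried the ETS core. Mrps5 and Mrps7 carried no ETS, YY1 or NRF1 core, and Mrpl38 and Mrps28 had no matched promoter.

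Levels can be compared between genes only per length, for which the authors' FPKM values were used. These divide by the deposited gene length, which need not be the length of the transcript present. The median member stood at 21.5 FPKM in controls and 16.8 FPKM after NAP. The members spanned a 57.2-fold range of control means, from 3.86 to 221 FPKM. At the top was Mrpl12, at 221 ± 111 FPKM (SD, n = 5), which encodes the L7/L12 protein of the stalk that receives translation factors. Next came Mrpl52 at 119 ± 20.5 FPKM and Mrps21 at 103 ± 44.1 FPKM, and then Mrpl34. Mrpl12 was above Mrpl52 in each of the 5 controls. The ranges of the next 3 overlapped, at 96.5 to 142 FPKM for Mrpl52, 62.0 to 156 for Mrps21 and 57.5 to 151 for Mrpl34. At the bottom were Mrps25 at 3.86 FPKM, Mrpl1 at 4.30, Mrpl3 at 5.15 and Mrpl19 at 5.65 FPKM. The deposited lengths of these genes were 6076, 4670, 8707 and 5016 bases, against a member median of 1580, and a larger length lowers FPKM. The part of length in this order was not tested. Mrps25 overlaps Nr2c2, and Mrpl19 overlaps Gcfc2. The order of levels was close in both groups, with a Spearman correlation of 0.96 across the 78 members, which share libraries and gene lengths and are not independent points.

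The comparison of NAP with control asked whether these transcripts differed after 48 h. Levels are given below in CPM, counts scaled to library size with the TMM method, and differences as log2 fold changes, NAP minus control, from the quasi-likelihood test of edgeR with Benjamini-Hochberg adjustment over all 14840 tested genes. At an adjusted p below 0.05, 4 members were called, all lower after NAP: Mrpl38, Mrps28, Mrps5 and Mrps34. That is 5.13% of the members, against 2.12% of all tested genes called in either direction and 1.07% called lower. A further 14 members had adjusted p-values between 0.05 and 0.1.

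The members leaned to lower values beyond these 4. Log2 fold changes were below 0 for 72 of 78 members, against 55.3% of tested genes, and ran from −1.31 to 0.22. Their median was −0.43, with quartiles at −0.72 and −0.26, against a median of −0.07 over all tested genes. At an unadjusted p below 0.05, 36 members (46.2%) were lower and 0 were higher, against 12.7% and 10.8% of tested genes. All 6 NAP libraries lay below the control mean for 52 members, against 22.7% of tested genes. They lay below the mean of controls 1, 3 and 4 for 22 members, against 24.5% of tested genes. The plot of member differences by subunit shows this lean in both subunits.

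**Figure D1:**
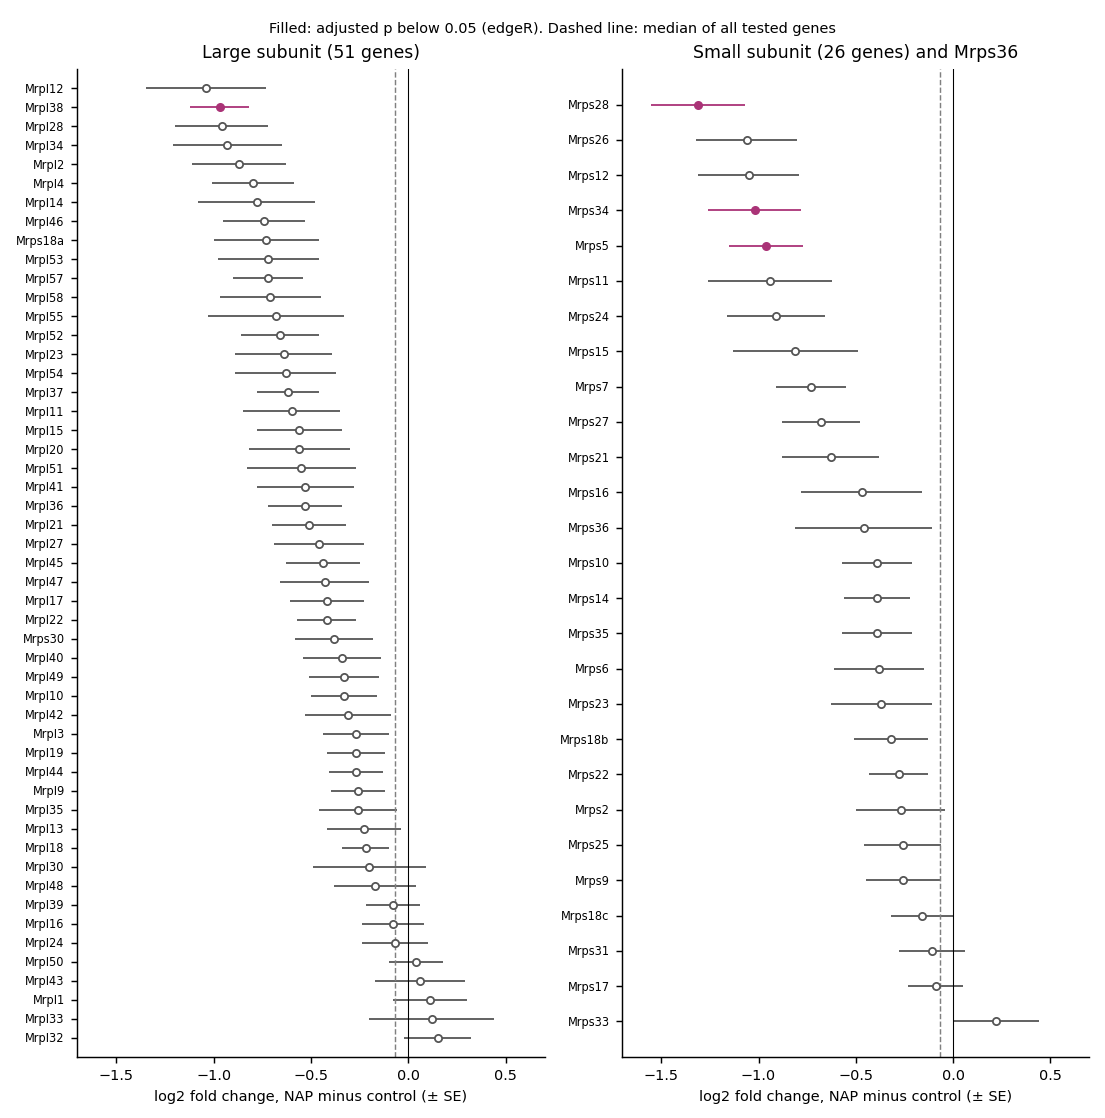
Log2 fold change (NAP minus control, x axis) of each member, with its standard error as a bar, for the large and the small subunit. The dashed line is the median of all tested genes, −0.07; 72 of the 78 members lie below 0 and 6 above.

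Mrpl38 encodes a mitochondria-specific protein of the central protuberance of the large subunit. It lies at chr11:116022643-116029694 on the minus strand (GRCm39, gene 60441 in the table). Its level was 64.6, 84.5, 55.4, 54.5 and 75.9 CPM in controls 1 to 5, and 28.2 to 38.9 CPM with a median of 34.6 in the 6 NAP libraries. Every NAP library was below every control. Mrpl38 fell 1.96-fold (log2 fold change −0.97, SE 0.15, adjusted p = 0.0343).

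Mrps28, which encodes a small subunit protein and has been linked to inherited mitochondrial disease, lies at chr3:8867206-8988917 on the minus strand. Its level was 13.6, 22.4, 17.1, 12.4 and 13.1 CPM in controls 1 to 5, and 4.68 to 8.46 CPM with a median of 5.73 after NAP. Again the groups did not overlap. Mrps28 fell 2.47-fold (log2 fold change −1.31, SE 0.24, adjusted p = 0.0343). It overlaps the gene models Gm52600 and, on its own strand, Gm52601, so that reads in shared stretches are of uncertain origin.

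Mrps5, at chr2:127429346-127445906 on the plus strand, encodes the relative of a bacterial protein at the channel through which messenger RNA enters the small subunit. Its level was 44.9, 56.4, 37.0, 39.0 and 48.9 CPM in controls 1 to 5, and 17.6 to 30.9 CPM with a median of 21.5 after NAP. All NAP values lay below all control values. Mrps5 fell 1.95-fold (log2 fold change −0.96, SE 0.19, adjusted p = 0.0386).

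Mrps34, at chr17:25114094-25115263 on the plus strand, encodes a mitochondria-specific protein needed for a stable small subunit. Its level was 54.3, 111, 57.5, 47.5 and 110 CPM in controls 1 to 5, and 31.6 to 48.0 CPM with a median of 36.2 after NAP. Controls 2 and 5 were well above the other controls, and NAP library 3 was just above control 4, so that the groups overlapped. Mrps34 fell 2.03-fold (log2 fold change −1.02, SE 0.24, adjusted p = 0.0477).

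The next members by p-value missed the threshold narrowly. Mrps26, for a mitochondria-specific small subunit protein, stood at 36.3 ± 7.96 CPM in controls (SD, n = 5) and 17.4 ± 6.77 after NAP (SD, n = 6), with an adjusted p of 0.0509. Mrps12, for the conserved protein at the decoding centre, stood at 27.5 ± 4.6 and 13.3 ± 5.36 CPM (adjusted p = 0.0523). Mrps7, for a conserved protein that binds the small ribosomal RNA, stood at 45.7 ± 12 and 27.6 ± 3.69 CPM (adjusted p = 0.0549). In these 3 genes every NAP library was below every control. Mrpl37, for a mitochondria-specific large subunit protein, stood at 60.5 ± 11.4 and 39.3 ± 5.65 CPM with an overlap, since NAP library 3 at 49.9 CPM was above control 4 at 49.4 CPM (adjusted p = 0.0555). Mrps7 overlaps Mif4gd and Gga3, and Mrpl37 overlaps Cyb5rl.

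**Figure D2:**
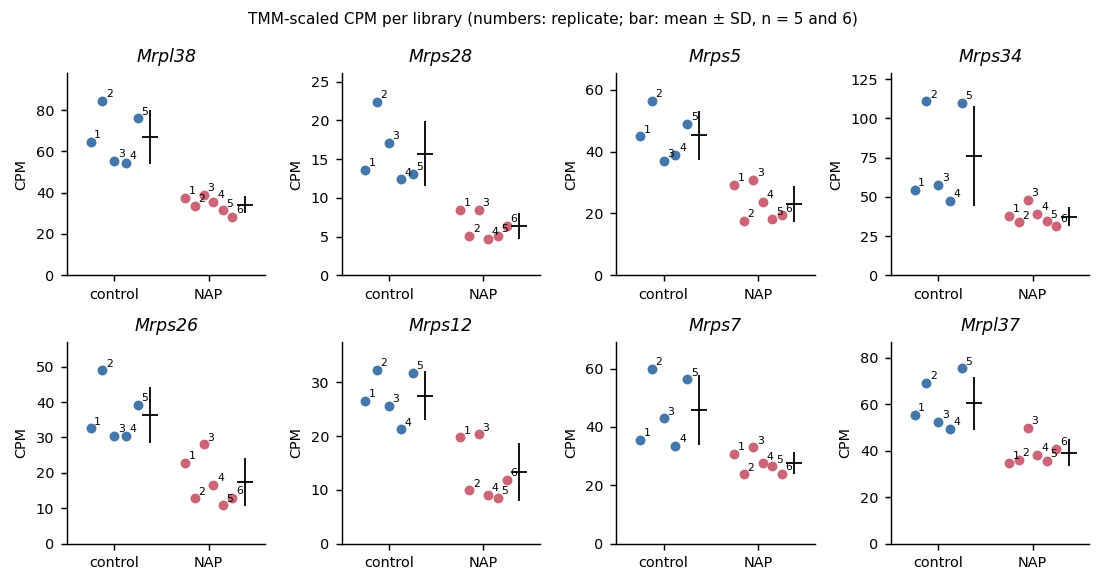
CPM (y axis) per library for the 8 members with the smallest p-values, with replicate numbers beside the points and the mean ± SD at the right of each group. In Mrps34 and Mrpl37 the groups overlap; in the other 6 genes every NAP library lies below every control.

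Counted over all members, every NAP library was below every control for 9 (11.5%), against 2.57% of tested genes. Every NAP library was above every control for 0 members, against 2.14%. Beside Mrpl38, Mrps28, Mrps5, Mrps26, Mrps12 and Mrps7, these were Mrpl57, Mrpl22 and Mrpl18, named after their values were seen. Mrpl57 stood at 35.1 ± 8.35 CPM in controls and 21.3 ± 3.67 after NAP, and Mrpl22, at the exit of the peptide tunnel, at 17.5 ± 1.90 and 13 ± 1.2 CPM. Mrpl18, which binds the RNA of the central protuberance, stood at 51.5 ± 3.24 and 44.3 ± 4.02 CPM, a small difference (log2 fold change −0.22, adjusted p = 0.297) with little spread. Mrpl57 overlaps Ska3 and Mrpl18 overlaps Tcp1.

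By subunit, 46 of the 51 large subunit genes had negative log2 fold changes, with a median of −0.44, 1 called and 24 at an unadjusted p below 0.05. Of the 26 small subunit genes, 25 were negative, with a median of −0.39, 3 called and 12 at an unadjusted p below 0.05. No test of the difference between subunits was run. All 16 conserved small subunit genes were negative (median −0.55, 2 called), as were 9 of the 10 mitochondria-specific ones (median −0.35, 1 called). In the large subunit, 27 of 30 conserved genes (median −0.43, 0 called, 13 at an unadjusted p below 0.05) and 19 of 21 mitochondria-specific genes (median −0.53, 1 called) were negative.

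Functional regions of the large subunit gave like values. The 5 genes of the L7/L12 stalk were all negative, with a median of −0.63, 0 called by edgeR and 4 at an unadjusted p below 0.05. Mrpl12 itself stood at 147, 360, 170, 117 and 326 CPM in controls 1 to 5 and at 76.7 to 163 CPM with NAP (difference −1.04 on the log2 scale, SE 0.31, adjusted p = 0.0765), with controls 2 and 5 far above the others. The 9 genes of the central protuberance were all negative (median −0.66), with Mrpl38 the called member. The 8 genes around the exit of the peptide tunnel were all negative (median −0.42), with 0 called and 4 at an unadjusted p below 0.05.

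The 6 members above 0 were Mrps33, Mrpl32, Mrpl33, Mrpl1, Mrpl43 and Mrpl50, with log2 fold changes of 0.22, 0.15, 0.12, 0.11, 0.06 and 0.04, and none passed the test. Mrps33, the small subunit gene among them, stood at 14.6 ± 4.57 CPM in controls and 17.0 ± 2.34 after NAP (adjusted p = 0.56). Mrpl33 stood at 42.0 ± 22.4 and 45.5 ± 10.3 CPM, with control 1 at 18.1 and control 2 at 65.7 CPM. It overlaps Gm38424 on its own strand, and Mrpl43 overlaps Twnk, the gene of the mitochondrial DNA helicase. Mrpl1, for a protein of the mobile L1 stalk, stood at 20.8 ± 2.97 and 22.4 ± 6.03 CPM. Mrpl50, for a mitochondria-specific large subunit protein, stood at 43.5 ± 4.13 and 44.9 ± 7.24 CPM. The sign of each of these 6 genes changed in at least 1 refit with another scaling, a replicate block, a trend correction or libraries left out.

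Control libraries 2 and 5 stood apart in these genes. Both were above controls 1, 3 and 4 for 71 of 78 members (91%), against 33.4% of tested genes, and their mean was 1.49 times that of the other 3 controls for the median member, with a range of 0.679 to 2.89. The highest of all 11 libraries was control 2 for 52 members and control 5 for 19. The median deviation of members from their mean log2 level was 0.68 and 0.59 in controls 2 and 5, −0.06, 0.13 and −0.14 in controls 1, 3 and 4, and −0.37 to 0.01 in the NAP libraries.

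Cell type markers moved with the same libraries. The 13 tested of 14 intestinal stem cell markers had a median deviation of −1.20 and −0.76 in controls 2 and 5, 0.90, 0.48 and 1.72 in controls 1, 3 and 4, and −0.54 to 0.31 in NAP libraries. The 21 markers of absorptive colonocytes, all tested, stood at 0.93 and 0.99 in controls 2 and 5, −1.38, −0.31 and −1.75 in controls 1, 3 and 4, and 0.01 to 0.70 in NAP libraries. TMM scaling factors were 0.855 and 0.848 in controls 2 and 5, 1.18, 1.05 and 1.24 in controls 1, 3 and 4, and 0.899 to 1.08 after NAP. The part of cell composition and of scaling in the member differences was not tested.

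**Figure D3:**
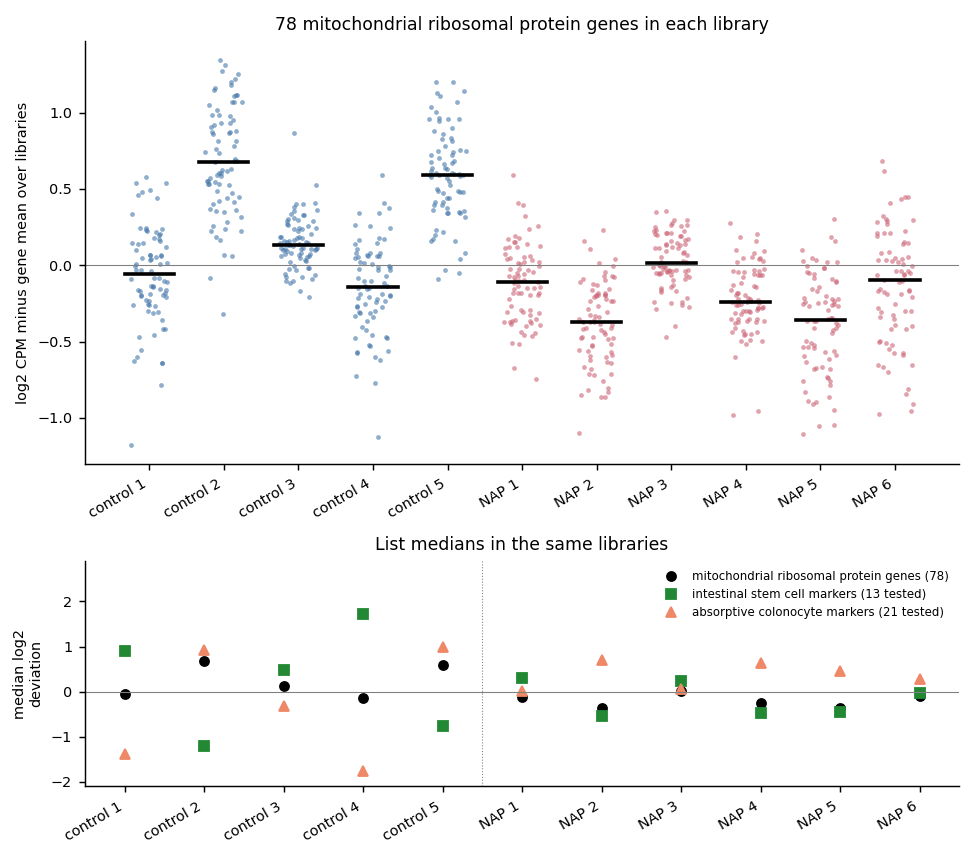
Upper panel: deviation of each of the 78 members from its mean log2 CPM (y axis) in each of the 11 libraries (x axis). Lower panel: median deviation of the members and of marker lists; members are highest in controls 2 and 5, at 0.68 and 0.59.

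With controls 2 and 5 left out, the member median moved to −0.13, against 0.00 for all tested genes. Of the 72 negative members, 54 stayed negative and 18 turned positive. Of the 78, 2 were called, against 5.32% of the 15501 genes tested in that comparison. At an unadjusted p below 0.05, 12 members were lower and 2 were higher, against 15.2% and 16.0% of tested genes, so the members' share of lower genes was near that of all genes. Mrpl38 (−0.74, adjusted p = 0.0386) and Mrps28 (−1.15, adjusted p = 0.0394) kept their calls. Mrps5 (−0.77, adjusted p = 0.0523) and Mrps34 (−0.48, adjusted p = 0.0789) did not. The 2 higher members were Mrpl33, at 0.81, and Mrps33, at 0.57, neither of them called. With controls 1 and 4 left out instead, the median was −0.60, against 0.03 for all tested genes, and 74 members were negative. In that comparison 29 members were called, all lower, against 5.46% of the 15873 tested genes called lower and 8.28% called in either direction. By median deviation, members were highest in controls 2 and 5 and lowest among controls in 1 and 4 (−0.06 and −0.14). The direction of both shifts was thus fixed by the libraries left out, and these refits describe only that dependence.

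**Figure D4:**
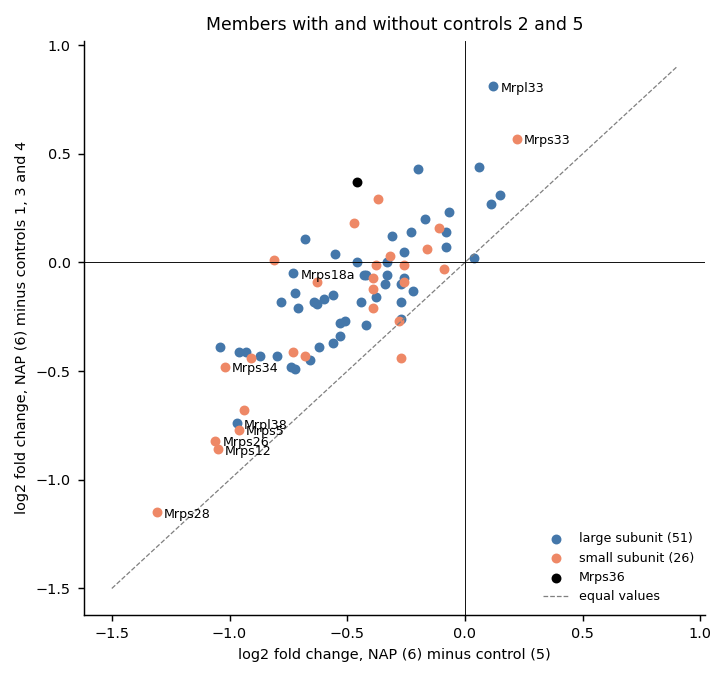
Log2 fold change of each member against all 5 controls (x axis) and against controls 1, 3 and 4 (y axis), with the line of equal values dashed. Most points lie above the line; Mrpl38 and Mrps28 stay low on both axes, at −0.74 and −1.15 on the y axis.

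Leaving out single libraries also moved the calls, while the member median stayed between −0.54 and −0.29. Mrpl38 was called in 5 of 11 such refits (adjusted p 0.0254 to 0.112), Mrps28 and Mrps5 in 4 each and Mrps34 in 3. Without control 1, 2 or 5, or NAP library 2, 4 or 5, edgeR called 0 members and 0 genes in all. At an unadjusted p below 0.05 there were 20 to 45 of 78 members, against 2614 to 3311 of 14669 to 15119 tested genes. The lowest member counts were 20 without control 2, against 3161 of 15096 genes, and 21 without control 5, against 3311 of 15119 genes. Calls over all genes moved as well. Without control 3, 3 members were called, against 1.04% of tested genes, and without control 4, 13 members, against 2.89%. Without NAP library 1, 9 members were called, against 5.58%, without NAP library 3, 15 members, against 5.39%, and without NAP library 6, 1 member, against 0.767%.

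As a share of all gene counts, with no scaling beyond the library total, the members held 0.351 ± 0.0429% in controls (SD, n = 5) and 0.247 ± 0.0438% after NAP (SD, n = 6). On that scale every NAP library, at 0.200 to 0.309%, was below every control, at 0.312 to 0.410%. Genes of the mitochondrial chromosome took 3.73 ± 0.897% of counts in controls and 6.51 ± 1.25% after NAP, with ranges of 2.74 to 4.78% and 5.17 to 8.08%. Since shares add up to a fixed total, a larger share of some genes lowers that of others. Its part in the member share was not tested.

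The 3 paralogs of bacterial protein S18 sit at different places in the ribosome. Mrps18a, in the large subunit, stood at 29.6, 71.7, 32.6, 24.9 and 69.5 CPM in controls 1 to 5 and at 24.8 to 32.2 CPM after NAP (log2 fold change −0.73, adjusted p = 0.133). Its difference rested on controls 2 and 5, and was −0.05 without them. Mrps18b stood at 50.5 ± 14.3 and 40.4 ± 6.68 CPM (−0.32), and Mrps18c at 18.7 ± 3.47 and 16.7 ± 1.49 CPM (−0.16), and both had slightly positive values, 0.03 and 0.06, without these controls. Mrps18a overlaps Rsph9 and Mrps18b overlaps Gm16279. Mrps36, the member outside the ribosome, stood at 44.8 ± 27.7 and 32.4 ± 4.17 CPM (−0.46, adjusted p = 0.44), with a value of 0.37 without controls 2 and 5.

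Differences varied with transcript GC content. The Spearman correlation of log2 fold change with GC content was −0.68 across the 78 members and −0.44 across the 12472 tested genes with a GC value. Genes share libraries and are not replicates, so no p is given. In the 26 members of lowest GC content (38.6 to 46.9%), the median log2 fold change was −0.26, against 0.16 for all tested genes in that range. In the middle 26 (46.9 to 52.2%) it was −0.41, against −0.09, and in the highest 26 (52.5 to 60.4%) it was −0.76, against −0.31. Of these members, 5, 9 and 22 had an unadjusted p below 0.05, against 3495 of the 14840 tested genes at any GC content. Without controls 2 and 5 the medians were 0.03, −0.15 and −0.40. By the deposited gene length, members were short, at a median of 1580 bases against 3470 over all tested genes, with the same median transcript GC content of 49.8%. Correlation with length was 0.26. After a GC trend was removed within each library, 76 members were negative, with a median of −0.47, 0 called and 40 at an unadjusted p below 0.05. Of all 12472 genes in that fit, 54.5% were negative, 30 were called and 2433 had an unadjusted p below 0.05. After a length trend was removed as well, 68 members were negative, with a median of −0.24, 0 called and 28 at an unadjusted p below 0.05. Among all 12472 genes there, 53.3% were negative, 0 were called and 2381 had an unadjusted p below 0.05. These corrections were chosen after seeing the data, and the part of GC content in the result was not tested further.

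**Figure D5:**
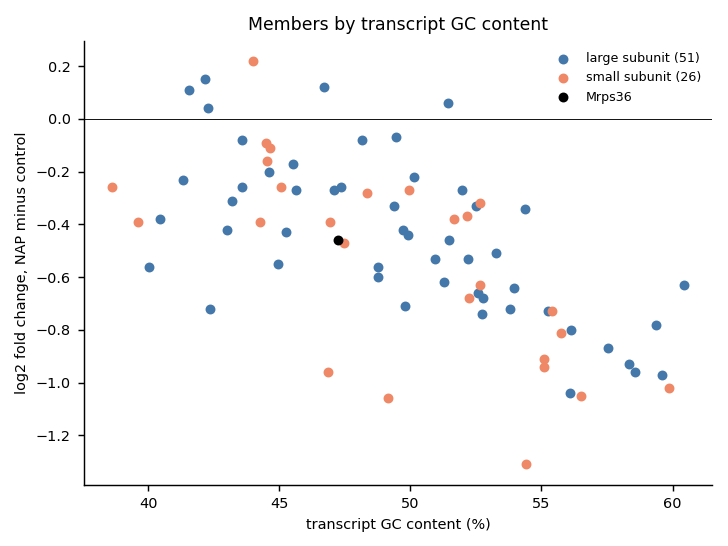
Log2 fold change (y axis) of each member against the GC content of its transcript in percent (x axis), coloured by subunit. The 26 members from 52.5% GC upwards have a median of −0.76, and the 26 up to 46.9% a median of −0.26.

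Among members with a matched promoter, those with the ETS core had a median log2 fold change of −0.46, against −0.39 for those without it. The called members Mrpl38, Mrps28 and Mrps34 had no matched promoter and are absent here. The called member Mrps5 is included and carries no ETS, YY1 or NRF1 core. Values were −0.65 with and −0.39 without the YY1 core, and −0.29 with and −0.46 without the NRF1 core. The groups with a YY1 or NRF1 core hold 8 members each, so these medians are descriptions.

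The other genes of mitochondrial translation were described from lists drawn up by function. Over all tested genes, 55.3% were negative, the median was −0.07 and 2.12% were called. At an unadjusted p below 0.05, 12.7% of all tested genes were lower and 10.8% were higher. Of the 5 mitochondrial ribosomal proteins with symbols outside the naming rule, all were negative with a median of −0.61. Gadd45gip1, whose protein is part of the large subunit, fell 2.54-fold, from 41.5 ± 4.63 to 16.3 ± 6.36 CPM (log2 fold change −1.34, SE 0.23, adjusted p = 0.0343), with every NAP library below every control. Aurkaip1, for a small subunit protein, stood at 70.1 ± 23.4 and 45.4 ± 8.87 CPM (adjusted p = 0.114).

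Of 28 genes for assembly of the ribosome and modification of its RNA, 21 were negative (median −0.43) and 0 were called, with 15 lower and 0 higher at an unadjusted p below 0.05. The smallest p-values were those of Rcc1l (−0.78, adjusted p = 0.0775) and Rbfa, a factor that binds the small subunit during assembly (−0.71, adjusted p = 0.0786). Of 18 translation factors, 15 were negative (median −0.14) and 1 was called. Tsfm, the exchange factor of the elongation factor Tu, fell 1.91-fold, from 25.1 ± 3.45 to 13.2 ± 3.42 CPM (adjusted p = 0.0417). Tufm, the elongation factor itself, stood at 136 to 270 CPM in controls and 102 to 168 CPM after NAP (−0.70, adjusted p = 0.0826).

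Of 17 aminoacyl-tRNA synthetases of the mitochondrion, 12 were negative (median −0.45) and 2 were called. Aars2, for the alanine enzyme, fell from 24.7 ± 3.13 to 13.8 ± 2.56 CPM (−0.84, adjusted p = 0.0417). Yars2, for the tyrosine enzyme, fell from 21.9 ± 3.30 to 11.4 ± 3.19 CPM (−0.94, adjusted p = 0.0477). When single libraries were left out, Gadd45gip1 was called in 5 of 11 refits, Aars2 in 4, Tsfm in 3 and Yars2 in 2. With library totals only, none of these genes was called (edgeR adjusted p 0.0513 to 0.0855). Of 9 genes for replication and transcription of mitochondrial DNA, 5 were negative (median −0.08) and 0 were called, with 2 lower at an unadjusted p below 0.05. Polrmt, the mitochondrial RNA polymerase, stood at 35.3 ± 10.1 and 18.5 ± 6.04 CPM (adjusted p = 0.0599), and Twnk at 19.2 ± 3.77 and 12.8 ± 4.58 CPM (adjusted p = 0.193).

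The 10 regulators of nuclear genes for mitochondria had a median of −0.05, with 0 called, and 1 lower and 2 higher at an unadjusted p below 0.05. Gabpa, the DNA-binding subunit of GABP, stood at 38.7 ± 6.79 and 56.8 ± 10.1 CPM (log2 fold change 0.55, adjusted p = 0.0855). Ppargc1a, a coactivator of mitochondrial genes, stood at 29.1 ± 3.16 and 38.8 ± 3.38 CPM (0.41, adjusted p = 0.0925). Neither passed the threshold.

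Cytosolic ribosomal proteins and the mitochondrial chromosome are set beside the members here, with the caveat that all share the same libraries. Of 75 tested cytosolic ribosomal protein genes, 72 were negative, with a median of −0.58 and 3 called, all lower. Rpl7a fell from 358 ± 139 to 122 ± 21.8 CPM (log2 fold change −1.56, adjusted p = 0.0343). Rpl8 fell by 1.15 on the log2 scale (adjusted p = 0.0403) and Rpl15 by 0.74 (adjusted p = 0.049). Counts of these genes are uncertain, since processed pseudogenes of cytosolic ribosomal proteins are common. Their median without controls 2 and 5 was −0.36, against −0.13 for the members. Of the 13 protein-coding genes of the mitochondrial chromosome, whose messages the mitochondrial ribosome translates, 12 were tested, all positive with a median of 0.44, and 0 were called, with 5 higher at an unadjusted p below 0.05.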

How the data were processed

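The authors deposited whole-number counts per gene and FPKM values for 11 libraries. The submitters' processing notes name Trimmomatic 0.39, HISAT2 2.2.1, featureCounts (Subread 2.0.8) and the build GRCm39. How strand and multi-mapping reads were handled, and which annotation was used, was not given in the sources used here; values of overlapping genes are therefore uncertain. The deposited FPKM values are counts times a library constant over gene length.

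Counts were filtered with filterByExpr, scaled with TMM and tested with the robust quasi-likelihood test of edgeR 4.0.16 (R 4.3.3), with no covariate and Benjamini-Hochberg adjustment at 0.05 over 14840 genes. The procedure was also run on simulated data, whose outcome is not given here and is not used as support for the calls. CPM values are TMM-scaled, except marker sums and floors, which use the library total. Alternatives used other scalings and filters, DESeq2 1.42.0, limma 3.58.1 on voom values and on log2(FPKM + 1) or log2(FPKM + 0.1), a replicate block, trends in GC or length removed (lowess, span 0.3), and libraries left out. GC content came from GENCODE M21 transcripts (GRCm38), matched by gene and used with no coordinates.

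Members and lists were chosen with earlier results of these data known. Named members were those called, up to 8 per direction with the smallest p, the 4 highest and 4 lowest control levels in FPKM, the 3 largest differences and the Mrps18 paralogs. In other lists they were called genes and the 2 smallest p-values. Of the cytosolic list, the called genes are named. Mrpl57, Mrpl22, Mrpl18, Mrpl46, Mrps11, Mrps36 and Abhd8 were named after their values were seen. No pair of libraries had identical counts in more than 1.93% of tested genes, so no library is a copy of another. Each was counted as its own sample, although this check cannot show whether any libraries share a mouse or culture.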

Additional observations from a re-analysis of the deposited data

Results flagged for a closer look

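In 5 of 90 groups of libraries tested for named genes, 1 library stood apart from the rest of its group by more than Dixon's critical value; chance flags about 1 in 20 groups. NAP library 6 was the highest of its group in 3 members. It stood at 24.0 CPM for Mrpl32 (others 16.4 to 18.9), at 34.3 CPM for Mrpl1 (others 18.0 to 21.9) and at 58.4 CPM for Mrpl50 (others 38.7 to 45.0). All 3 are among the 6 members with log2 fold changes above 0. A high value in 1 NAP library raises the log2 fold change, so this overlap follows in part from the same values. Control 2 stood at 49.4 CPM for Mrpl57, against 29.1 to 34.6 CPM in the other controls. NAP library 3 stood at 168 CPM for Tufm, against 102 to 122 CPM in the other NAP libraries.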

How the results depend on the processing

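Counts of calls depended on the processing. The member median stayed negative in every refit, but its distance from the median of all tested genes ran from −0.63 to −0.07. Genes called and members called numbered 41 and 1 with library totals only, 89 and 2 with no low-count filter, 1656 and 20 with DESeq2, and 1480 and 18 at an adjusted p of 0.1. With controls 1 and 4 left out they numbered 1315 and 29, and with controls 2 and 5 left out 824 and 2 (median −0.13). Of the alternatives, 3 were chosen after seeing the data: 30 and 0 were called with the GC trend removed, 0 and 0 with GC and length trends removed, and 1639 and 7 with library totals and controls 2 and 5 left out. Leaving out each library in turn gave 0 to 814 genes and 0 to 15 members, with 2614 to 3792 genes at an unadjusted p below 0.05. The median of all tested genes was −0.33 with no filter, −0.34 with DESeq2 and −0.14 with library totals, against −0.07. The member medians in these fits were −0.40, −0.41 and −0.43, against −0.43. With no filter and with DESeq2, where 34071 and 34002 genes were tested, members thus lay only 0.07 below all genes. With a replicate block, edgeR called 0 genes and 0 members, with 2903 genes and 25 members at an unadjusted p below 0.05. Deviations of same-numbered libraries correlated at 0.42, 0.34, −0.07, −0.30 and 0.30. The NAP libraries closest to controls 1 to 5 were 1, 2, 6, 1 and 2. These mixed values do not settle whether equal numbers mark paired libraries, and the labels do not say. No called member changed sign in any refit. Signs changed for Mrpl50 (−0.03 with library totals, −0.05 with the replicate block, −0.10 with GC and length trends removed, −0.21 with the GC trend removed, −0.23 with library totals and controls 2 and 5 out). They also changed for Mrpl1 (−0.05 with the block, −0.30 with GC and length trends removed, −0.21 with the GC trend removed), Mrps18c (0.15 with the length trend removed, 0.06 without controls 2 and 5) and Mrps18b (0.02 with GC and length trends removed, 0.03 without controls 2 and 5). Without controls 1 and 4, Mrps33 stood at −0.02, Mrpl33 at −0.26 and Mrpl43 at −0.18, and with the GC trend removed Mrpl32 stood at −0.12 and Mrpl33 at −0.01. Mrps36 stood at 0.37 without controls 2 and 5 and at 0.15 with library totals as well, and Ppargc1a at 0.00 with GC and length trends removed. Leaving out single libraries gave −0.07 to 0.35 for Mrpl33, −0.06 to 0.22 for Mrpl43, −0.04 to 0.20 for Mrpl1 and −0.03 to 0.10 for Mrpl50. The cause was not tested. Of 1247 results for 43 named genes over 29 alternatives, 1029 kept direction and side of the threshold. The alternatives include the main fit at an adjusted p of 0.1. Most named genes were not called in the main fit and kept their side by staying uncalled. The called members kept direction and call less often, in 20 of 29 alternatives for Mrpl38, 18 for Mrps28, 16 for Mrps5 and 11 for Mrps34.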

Other observations

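Many members start beside another gene on the opposite strand. A protein-coding neighbour with a start within 500 bases, read the other way, was found for 27 of 78 members (34.6%), against 13.9% of the 12483 tested protein-coding genes. The 24 tested neighbours that are not members had a median log2 fold change of −0.27, against −0.07 over all tested genes. Against 55.3% negative and 2.12% called over all tested genes, 21 of these neighbours were negative and 1 was called. That gene, Abhd8 beside Mrpl34, fell from 23.3 ± 5.33 to 8.61 ± 3.88 CPM (SD, n = 5 and 6; log2 fold change −1.43, adjusted p = 0.0417 by edgeR). Abhd8 was called in 4 of 11 refits that left out 1 library, and was not called with library totals only. Mrpl34 stood at −0.93 (adjusted p = 0.0802). Mrpl46 and Mrps11 are members that share such a start region, with log2 fold changes of −0.74 and −0.94, neither of them called.

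The 5 annotated pseudogenes with a name of this family had at most 25 counts in any library. The ratio of large to small subunit counts was 2.37 ± 0.0612 in controls and 2.45 ± 0.0948 after NAP (SD, n = 5 and 6), with ranges that overlapped.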
